A study of Mus musculus with 45 samples.

Results

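Expression of 10 genes of Wnt signalling was followed in mouse neuroepithelial organoids grown with or without all-trans retinoic acid (RA). The genes were Axin2, Lef1, Sp5, Nkd1, Wnt1, Rspo3, Dkk1, Sfrp1, Sfrp2 and Sfrp5. They were taken by name, as the rows of the deposited count table whose Ensembl identifier maps to these symbols, and all 10 were found among its 54532 genes. The organoids came from wild-type cells of R1, a mouse embryonic stem cell line, embedded in Matrigel and grown clonally in N2B27, a serum-free medium. Organoids were sampled at day 2, when no RA had been given, and at 7 later times (first at 8 h and 18 h, then each 12 h from 30 h to 78 h, all counted from day 2), with the medium replaced at day 2 by N2B27 alone (untreated) or by N2B27 with 250 nM all-trans RA. Each of the 15 conditions had 3 biological replicates, giving 45 RNAseq libraries, all from 1 cell line. The protocol in the sample labels writes the dose in µM and lists other late times. The dose of the series design and the times of the sample titles are used here.

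Wnt proteins are secreted ligands that bind Frizzled receptors and Lrp5 or Lrp6 co-receptors. In the canonical branch this stabilizes β-catenin, which enters the nucleus and activates genes together with transcription factors of the Tcf and Lef family. Axin2, which helps to degrade β-catenin, Nkd1, which binds Dishevelled, Sp5, a transcription factor, and Lef1 itself are widely used as target genes of this branch. Wnt1 is a ligand of the midbrain and of the dorsal midline of the neural tube, and Rspo3 is a secreted protein that keeps Wnt receptors at the cell surface. Dkk1 blocks Lrp5 and Lrp6, whereas the Sfrp proteins carry a Frizzled-like domain and bind Wnt ligands outside the cell. In the embryo, Wnt signals and RA both pattern the neural tube along its head-to-tail axis.

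On the GRCm38 genome, Axin2 lies at chr11:108920349-108950783, Lef1 at chr3:131110471-131224356, Sp5 at chr2:70474923-70477729, Nkd1 at chr8:88521354-88594884, Sfrp1 at chr8:23411502-23449632, Sfrp2 at chr3:83766321-83774316 and Wnt1 at chr15:98789857-98793837, all on the plus strand. Rspo3 at chr10:29452416-29535867, Dkk1 at chr19:30545863-30549665 and Sfrp5 at chr19:42197971-42202252 are on the minus strand. Counts were summed over the exons of these protein-coding genes. RefSeq promoter windows of 300 bases around annotated starts (GRCm38.p6) were at hand for 8 of the 10 genes, with 11 windows in all. They were searched on both strands for CTTTGA, the core of the Tcf and Lef motif (TCAAAG on the other strand), and for AGGTCA, the core element bound by RA receptors (TGACCT on the other strand), also as repeats with 2 or 5 bases between the elements. Sp5, Dkk1 and 1 start inside Lef1 held 2 matches to CTTTGA each, and the other 8 windows held none, among them 3 further starts of Lef1. Of 32851 promoter windows of the same length, 16.0% held this motif. No window of the members held AGGTCA, which was found in 16.3% of all windows, and the repeats with 2 or 5 bases between were each found in 0.00913%. A match describes letters only, and the lack of one says only that they are not in this window. The windows of Sp5 and Dkk1 are shown because both genes were higher with RA from 42 h on, and that of Sfrp5 because it went up and down again with RA. Lef1 is included because it was lower at every time. Of its windows, the 1 shown lies inside the gene and was chosen because it alone held matches. Capitals mark CTTTGA or TCAAAG, and each sequence is written 5′ to 3′ on the strand of its gene, plus for Sp5 (chr2:70474673-70474972) and Lef1 (chr3:131156044-131156343), minus for Dkk1 (chr19:30549447-30549746) and Sfrp5 (chr19:42202203-42202502).
Sp5: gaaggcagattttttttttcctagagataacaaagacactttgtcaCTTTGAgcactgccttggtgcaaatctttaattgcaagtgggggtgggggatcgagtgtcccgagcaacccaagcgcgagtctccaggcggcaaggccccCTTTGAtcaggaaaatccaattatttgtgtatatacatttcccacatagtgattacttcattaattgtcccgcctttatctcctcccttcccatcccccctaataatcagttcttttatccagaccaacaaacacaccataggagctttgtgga
Dkk1: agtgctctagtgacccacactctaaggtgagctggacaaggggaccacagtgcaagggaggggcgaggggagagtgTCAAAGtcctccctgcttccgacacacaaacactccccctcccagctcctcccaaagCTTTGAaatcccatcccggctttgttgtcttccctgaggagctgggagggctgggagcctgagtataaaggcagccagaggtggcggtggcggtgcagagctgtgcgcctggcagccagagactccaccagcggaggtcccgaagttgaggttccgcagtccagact
Lef1: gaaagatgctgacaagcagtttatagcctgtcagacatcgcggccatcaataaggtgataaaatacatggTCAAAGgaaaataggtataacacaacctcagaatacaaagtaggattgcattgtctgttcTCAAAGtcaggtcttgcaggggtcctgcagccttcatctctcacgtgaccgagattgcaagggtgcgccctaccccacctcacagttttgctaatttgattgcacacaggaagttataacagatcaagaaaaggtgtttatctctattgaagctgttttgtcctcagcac
Sfrp5: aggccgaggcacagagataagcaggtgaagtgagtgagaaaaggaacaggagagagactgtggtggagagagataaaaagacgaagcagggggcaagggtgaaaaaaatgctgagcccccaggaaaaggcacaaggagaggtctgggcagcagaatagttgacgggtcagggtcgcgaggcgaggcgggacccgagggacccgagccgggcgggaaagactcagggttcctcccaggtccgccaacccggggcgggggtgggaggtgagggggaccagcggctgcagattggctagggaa

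Total counts per library lay between 17298632 and 39688686, and 3 counts, used here as the detection floor, corresponded to 0.0800 to 0.183 CPM. Levels are given in CPM (read counts scaled to library size, with TMM normalization over the 45 libraries), and levels of different genes are compared only as CPM per kb of exon. Neural progenitor genes (Sox1, Sox2, Nes, Cdh2, Pax6 and Hes5) summed to between 456.5 and 475.0 CPM at day 2. At 78 h they summed to between 913.1 and 1074 CPM without RA and between 1067 and 1227 CPM with RA. At day 2, 1 of the 6 genes was below 1 CPM in all libraries, and Sox1 was at 1.75 to 2.53 CPM. The pluripotent or epiblast list named below summed to at least 1628 CPM at that time. In these bulk samples, fewer cells of a type and less RNA per cell cannot be told apart. Libraries were not uniform. In 6 libraries the mean of 4 Y chromosome genes was only 1.22 to 3.65 CPM, whereas it ranged from 22.9 to 89.5 CPM in the remaining 39. These 6 were replicate 3 of RA 8 h, replicates 1 and 3 of RA 30 h and every untreated library of 30 h. Every untreated value of 30 h given below thus comes from the lower range, where time and this difference cannot be told apart. The fits at 8 h and 30 h were also made without RA 8 h replicate 3 and without RA 30 h replicate 2, the library that stood apart from the others of its group.

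Genes were called at an adjusted p (Benjamini-Hochberg) of less than 0.01 in edgeR's quasi-likelihood test, provided the log2 fold change also exceeded 1 in either direction, and the words rose and fell are used for called genes only. At 8 h, 8 of the 10 genes could be tested, of which none rose, against 1.26% of all genes tested, and 1 (Lef1) fell, against 0.537%. At 18 h, 2 of 8 rose (Sp5 and Sfrp5; 8.17% of all genes) and Lef1 fell (2.76%). At 30 h, Sfrp5 rose (5.98% of all genes) and Lef1 fell (2.48%), again of 8 tested. From 42 h on all 10 genes passed the filter on low counts. At 42 h, Sp5, Wnt1, Dkk1 and Sfrp5 rose (7.49% of all genes) and Lef1 fell (4.96%). At 54 h the same 4 genes rose (7.17%) and Lef1 and Sfrp1 fell (5.99%). At 66 h, 5 of 10 rose, now with Rspo3 (7.06%), and at 78 h 4 of 10 rose, without it (7.66%). Lef1 and Sfrp1 fell at both of these times, when 4.44% and 4.03% of all genes fell. At 30 h, Sp5 and Rspo3, neither of them called, passed the filter on low counts only through the RA-treated libraries. Wnt1 and Dkk1 passed the filter from 42 h on through the RA-treated libraries, where they were high, and were not tested from 8 h to 30 h. Over the other 8 genes, which were tested at every time, the median log2 fold change was -0.59, 0.21 and 0.70 at the first 3 times and 0.21, 0.39, 0.39 and 0.38 at the last 4, whereas the median of all genes tested lay between -0.01 and 0.04. The median at 8 h leaned on RA 8 h replicate 3. Without this library the log2 fold changes at 8 h were -0.18 (Axin2), -1.82 (Lef1), -0.13 (Sp5) and -0.05 (Nkd1). Those of Rspo3, Sfrp1, Sfrp2 and Sfrp5 were -0.23, -0.24, -0.83 and 2.42. Axin2, Nkd1 and Sfrp2 were not called at any of the 7 times.

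**Figure D1:**
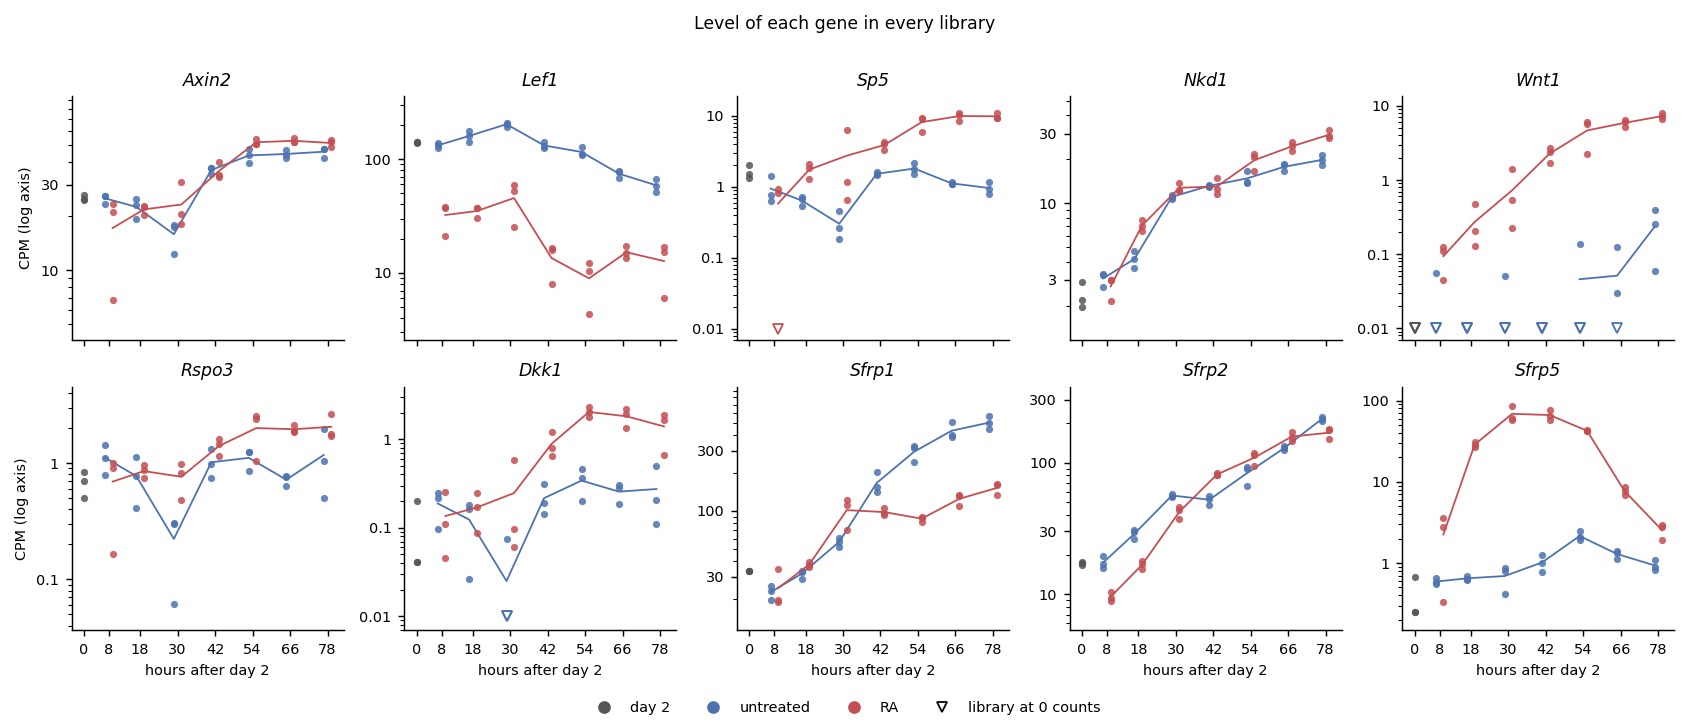
Level of the 10 genes in every library, with hours after day 2 on the horizontal axis and CPM on a log axis. Points are single libraries (3 per condition), lines join the means of conditions with a mean above 0, and open triangles mark libraries with 0 counts. Lef1 lay lower in all RA-treated libraries at each of the 7 times, Sfrp5 was highest with RA at 30 h and 42 h, and Axin2 and Sfrp2 were higher at 78 h than at day 2 in both arms.

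Among the target genes, Lef1 had the most persistent difference. At day 2 it was at 141, 141 and 140 CPM in replicates 1 to 3. Within 8 h, the untreated libraries had 125, 139 and 133 CPM and the RA-treated libraries 38.3, 37.5 and 21.2 CPM, with no overlap, and Lef1 fell by 2.03 on the log2 scale (SE 0.204, adjusted p = 0.00146). This call rests on all 3 untreated libraries: without any one of them the adjusted p lay between 0.0126 and 0.0178, with the log2 fold change between -2.07 and -1.99. Without RA 8 h replicate 3, the log2 fold change was -1.82 (SE 0.0723, adjusted p = 1.21e-11). In untreated organoids Lef1 was highest at 30 h (206, 210 and 194 CPM), in libraries that were all in the lower range of Y chromosome genes. The part of that difference in this peak was not tested. The RA-treated libraries of 30 h had 52.3, 25.5 and 58.9 CPM. The lowest of these was RA 30 h replicate 2, without which the log2 fold change was -1.89 (SE 0.0719) in place of -2.16 (SE 0.273, adjusted p = 0.00139). Without untreated 30 h replicate 2 the adjusted p was 0.0105. The log2 fold change was farthest from 0 at 54 h, with 111, 128 and 108 CPM in untreated and 4.31, 12.2 and 10.4 CPM in RA-treated libraries. Its value there was -3.69 (SE 0.240, adjusted p = 5.42e-07). By 78 h, Lef1 stood at 51.9, 66.4 and 58.4 CPM without RA and at 16.8, 15.4 and 6.02 CPM with RA. The groups did not overlap at any of the 7 times, and the log2 fold change was -2.18 (SE 0.248, adjusted p = 3.14e-05) at the last. Against day 2, Lef1 fell by 1.26 (SE 0.0687) in untreated and by 3.46 (SE 0.234) in RA-treated organoids at 78 h.

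Axin2 and Nkd1, which both damp the pathway that activates them, did not pass the fold threshold between the arms at any time. Axin2 lay at 25.4 ± 0.918 CPM at day 2 (SD, n = 3) and at 46.0 ± 3.03 CPM without RA and 51.4 ± 2.33 CPM with RA at 78 h. Its log2 fold change between the arms was 0.23 (SE 0.0732) at 54 h, 0.26 (SE 0.0556) at 66 h and 0.18 (SE 0.0602) at 78 h. All RA-treated libraries were above all untreated ones at these 3 times, by less than a log2 fold change of 0.3, and the adjusted p was 0.0219, 0.00361 and 0.0316. At 8 h, RA 8 h replicate 3 was low, at 6.80 CPM beside 21.3 and 23.5 CPM in the other 2 RA-treated libraries. Without this library the log2 fold change at 8 h was -0.18 (SE 0.0903) in place of -0.55 (SE 0.379). At 30 h it was 0.26 (SE 0.127) without RA 30 h replicate 2 and 0.56 (SE 0.245) with it. Nkd1 was the lowest at day 2 (2.20, 1.95 and 2.91 CPM) and the highest with RA at 78 h (28.9, 27.9 and 31.7 CPM), with 19.7, 18.2 and 21.6 CPM without RA. It rose against day 2 in both arms, with a log2 fold change of 3.06 (SE 0.138) in untreated and 3.64 (SE 0.135) in RA-treated organoids at 78 h. Between the arms its log2 fold change was 0.77 at 18 h (SE 0.129, adjusted p = 0.000264), 0.47 at 66 h (SE 0.0727, adjusted p = 0.000433) and 0.59 at 78 h (SE 0.0804, adjusted p = 0.000127). At 5 of 7 times all RA-treated libraries were above all untreated libraries. Of these 4 target genes, Lef1 was thus lower with RA while Sp5 was higher, and Axin2 and Nkd1 differed by less than the threshold.

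Sp5 was a rare transcript that separated the arms in the later days. At day 2 it had 1.49, 1.35 and 2.03 CPM. At 18 h, the untreated libraries were at 0.722, 0.536 and 0.667 CPM and the RA-treated libraries at 1.30, 1.85 and 2.09 CPM, and Sp5 rose with a log2 fold change of 1.45 (SE 0.276, adjusted p = 0.000674). Against day 2 this was a fall in untreated organoids (log2 fold change -1.34, SE 0.294, adjusted p = 0.00225) and a log2 fold change of 0.09 (SE 0.262, adjusted p = 0.779) in RA-treated ones. The fall was lost without day 2 replicate 3 (adjusted p = 0.0113) or untreated 18 h replicate 3 (adjusted p = 0.0101). At 30 h, the RA-treated libraries had 1.18, 6.41 and 0.661 CPM and the untreated libraries 0.263, 0.183 and 0.460 CPM. RA 30 h replicate 2 was far above the other 2, and Sp5 was not called (log2 fold change 3.18, SE 0.968, adjusted p = 0.0446). Without that library the log2 fold change was 1.55 (SE 0.489, adjusted p = 0.0116). DESeq2 on the same 6 libraries called it (adjusted p = 0.00102). The untreated libraries of 30 h held 7, 3 and 9 counts. Sp5 thus passed the filter of edgeR there only through the RA-treated libraries, where it was higher. From 42 h on, every RA-treated library was above every untreated one. At 78 h Sp5 stood at 9.44, 10.8 and 9.31 CPM with RA and at 0.791, 0.922 and 1.17 CPM without, and the log2 fold change was 3.35 (SE 0.164, adjusted p = 4.12e-08). The intermediate values were 1.33 (SE 0.183) at 42 h, 2.14 (SE 0.210) at 54 h and 3.16 (SE 0.156) at 66 h.

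**Figure D2:**
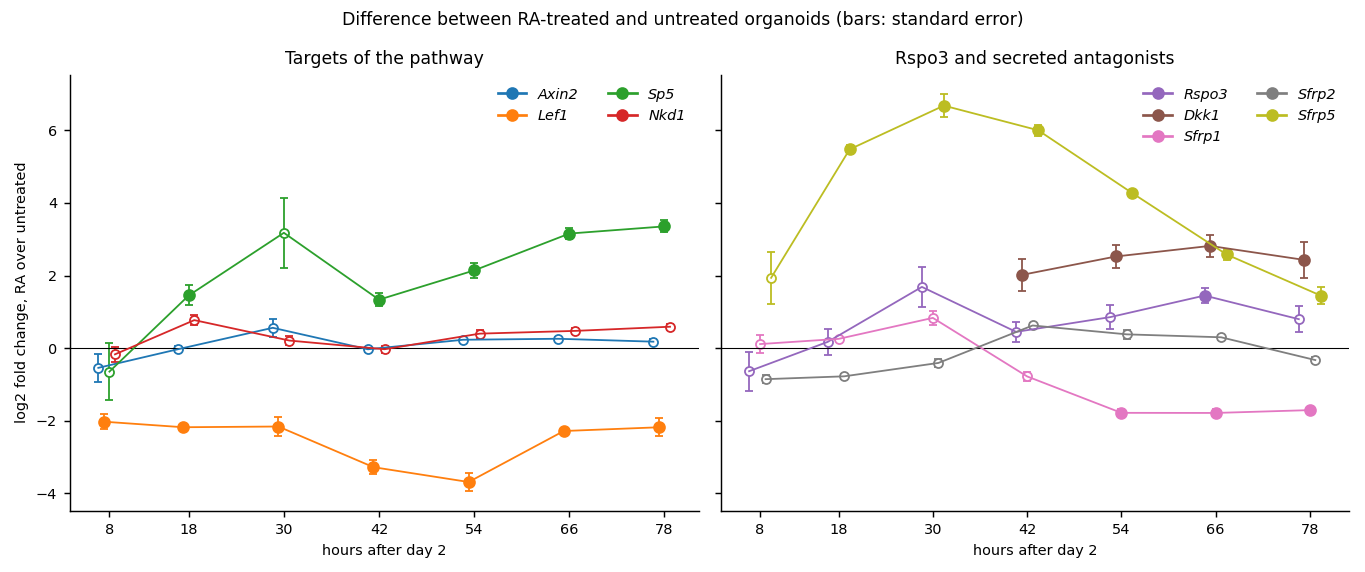
Log2 fold change of RA-treated over untreated organoids by hours after day 2, with the standard error of edgeR's fit as bars (3 against 3 libraries per time). Filled points are called and open points are not, and Wnt1 is left out because untreated libraries held few or no counts of it. Lef1 lay between -3.69 and -2.03 over the 7 times, whereas Sfrp5 went from 1.94 at 8 h to 6.68 at 30 h and to 1.45 at 78 h.

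Of the secreted activators, Wnt1 was close to absent without RA. The 3 day 2 libraries held 0 counts of it, as did all untreated libraries at 18 h and 42 h, and the untreated libraries at 78 h held 7, 2 and 14 counts. With RA, the libraries had 3, 5 and 11 counts at 18 h and 7, 46 and 18 counts at 30 h. At 42 h they reached 2.38, 1.72 and 2.71 CPM. Against 3 counts in each untreated library, the mean of Wnt1 was at least 20.02-fold higher with RA at 42 h. At 54 h, 2.27, 5.75 and 5.98 CPM with RA stood against 3 counts in all untreated libraries together. The ratio of summed counts was 122 (95% exact interval 41.6 to 596, counting error only). At 78 h, with 7.27, 7.92 and 6.69 CPM with RA, the ratio was 30.9 (20.4 to 49.0). From 42 h on, Wnt1 passed the filter on low counts only through the RA-treated libraries, where it was high. Its calls are thus not given as support for these values. RA-treated and untreated libraries did not overlap at any time from 18 h on. Against 3 counts in each day 2 library, the mean of the RA 78 h libraries was at least 54.9-fold higher.

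Rspo3 had at most 2.67 CPM in any library. At 30 h its log2 fold change was 1.69 (SE 0.542, adjusted p = 0.0530), and 1.58 (SE 0.563, adjusted p = 0.0237) without RA 30 h replicate 2. The untreated libraries of 30 h held 8, 1 and 6 counts, and Rspo3 passed the filter there only through the RA-treated ones. It rose with RA at 66 h, where the untreated libraries had 0.634, 0.772 and 0.753 CPM and the RA-treated libraries 1.86, 1.90 and 2.11 CPM (log2 fold change 1.45, SE 0.199, adjusted p = 0.000216). At 54 h and 78 h the arms overlapped and Rspo3 was not called, with log2 fold changes of 0.85 (SE 0.342) and 0.80 (SE 0.367). RA 54 h replicate 1, at 1.04 CPM, lay below the other 2 RA-treated libraries (2.56 and 2.399 CPM), and without it the adjusted p was 0.00244. Untreated 78 h replicate 3, at 1.98 CPM, lay above the other untreated libraries (0.503 and 1.04 CPM), and without it the adjusted p was 0.00647. Against day 2, Rspo3 rose with RA at 78 h (log2 fold change 1.58, SE 0.294, adjusted p = 0.000323).

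Dkk1 was barely detected up to 30 h, where no library had more than 19 counts of it. At 42 h the untreated libraries had 0.314, 0.190 and 0.144 CPM and the RA-treated libraries 0.792, 0.649 and 1.22 CPM, and Dkk1 rose with a log2 fold change of 2.02 (SE 0.430, adjusted p = 0.00265). It was highest with RA at 54 h, with 1.77, 2.3 and 2.03 CPM against 0.367, 0.200 and 0.458 CPM. The log2 fold change was 2.52 (SE 0.320) at 54 h, 2.82 (SE 0.304) at 66 h and 2.43 (SE 0.508) at 78 h. The groups did not overlap at any of these 4 times. At each of them Dkk1 passed the filter on low counts only through the RA-treated libraries, where it was high. The adjusted p given here are thus no separate support for its rise. The calls at 42 h and 78 h were the weakest: leaving out RA 42 h replicate 3, untreated 42 h replicate 2 or untreated 42 h replicate 3 gave adjusted p of 0.0132, 0.0140 and 0.0145, and leaving out RA 78 h replicate 2 or untreated 78 h replicate 2 gave 0.0126 and 0.0138. At 78 h the RA-treated libraries ranged from 0.665 to 1.88 CPM.

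The 3 Sfrp genes differed from each other in their response. Sfrp5 was scarce in untreated organoids, between 0.414 and 2.45 CPM in all 21 libraries, and went up and down again with RA. At 8 h, RA-treated libraries had 3.61, 2.81 and 0.332 CPM and untreated libraries 0.549, 0.646 and 0.577 CPM, so that RA 8 h replicate 3 was below and the other 2 above the untreated group. Sfrp5 was not called (log2 fold change 1.94, SE 0.714, adjusted p = 0.124), but was without that library (2.42, SE 0.278, adjusted p = 5.31e-06). By 18 h the RA-treated libraries were at 28.2, 27.2 and 30.7 CPM against 0.632, 0.701 and 0.614 CPM, a log2 fold change of 5.48 (SE 0.120, adjusted p = 2.11e-12). The highest levels were reached at 30 h (61.1, 87.0 and 58.0 CPM) and 42 h (77.0, 63.9 and 58.4 CPM), where the log2 fold changes were 6.68 (SE 0.310) and 6.01 (SE 0.153). Thereafter the RA-treated libraries declined to 41.7, 42.8 and 42.9 CPM at 54 h, 6.89, 7.65 and 8.57 CPM at 66 h and 2.92, 1.91 and 2.77 CPM at 78 h. They still lay above the untreated libraries at 78 h (0.827, 0.892 and 1.09 CPM), with a log2 fold change of 1.45 (SE 0.229, adjusted p = 0.000357). Without RA 30 h replicate 2, the highest library at 30 h, the log2 fold change was 6.47 (SE 0.150).

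Sfrp1 climbed in untreated organoids from 33.5, 33.1 and 33.3 CPM at day 2 to 445, 496 and 571 CPM at 78 h, a log2 fold change of 3.92 (SE 0.0817, adjusted p = 9.04e-16). With RA it reached 134, 160 and 164 CPM at 78 h. At 8 h the arms differed by a log2 fold change of 0.11 (SE 0.249), which was -0.24 (SE 0.106) without RA 8 h replicate 3, and at 18 h by 0.25 (SE 0.0639). At 30 h the RA-treated libraries were higher, at 122, 70.1 and 112 CPM against 61.4, 51.9 and 57.0 CPM, but Sfrp1 was called only without RA 30 h replicate 2, the lowest of them (1.02, SE 0.0755, against 0.83, SE 0.191, with it). From 42 h on the order was turned, with all RA-treated libraries below all untreated ones. Sfrp1 was not called at 42 h (log2 fold change -0.78, SE 0.113) and fell by 1.79 (SE 0.0980), 1.79 (SE 0.111) and 1.71 (SE 0.0923) at 54, 66 and 78 h. The adjusted p at these times was 1.66e-07, 8.79e-07 and 8.79e-08.

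Sfrp2 climbed in both arms and was not called between them at any time. It went from 17.2 ± 0.393 CPM at day 2 to 214 ± 8.01 CPM without RA and 169 ± 16.2 CPM with RA at 78 h (SD, n = 3), log2 fold changes of 3.64 (SE 0.0636) and 3.29 (SE 0.0802). The arms did not overlap at any of the 7 times, but changed order. RA-treated libraries were lower at 8 h (10.4, 9.43 and 8.90 CPM against 15.8, 17.04 and 19.4 CPM; log2 fold change -0.86, SE 0.119, adjusted p = 0.00574), with -0.83 (SE 0.109) without RA 8 h replicate 3. They were higher at 42 h (83.1, 80.0 and 80.2 CPM against 48.0, 55.6 and 53.2 CPM; log2 fold change 0.62, SE 0.0611, adjusted p = 1.34e-05). At 78 h they were lower again (log2 fold change -0.33, SE 0.0717, adjusted p = 0.00294).

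Per length of exon, the Sfrp genes can be set beside each other. At day 2, Sfrp1 and Sfrp2 made up 48.2% ± 0.665 and 50.5% ± 0.481 of the summed level of the 3 genes (SD, n = 3), and Sfrp5 1.29% ± 0.778. In untreated organoids Sfrp5 stayed between 0.228% ± 0.0177 (78 h) and 2.29% ± 0.196 (8 h). With RA it made up 48.0% ± 1.22 at 18 h, 45.8% ± 10.4 at 30 h, 36.7% ± 2.47 at 42 h and 24.1% ± 1.31 at 54 h. Its share was down to 1.18% ± 0.300 at 78 h. The sum of the 3 genes was higher with RA at 18 h (31.4 ± 1.69 against 20.97 ± 1.504 CPM per kb) and at 30 h (79.0 ± 2.53 against 39.5 ± 1.61 CPM per kb). At 78 h it was lower with RA, at 115 ± 6.40 against 215 ± 14.2 CPM per kb, when Sfrp2 held 68.3% ± 3.80 of it with RA and 46.3% ± 3.46 without. These shares are given as values, with no test between the arms.

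**Figure D3:**
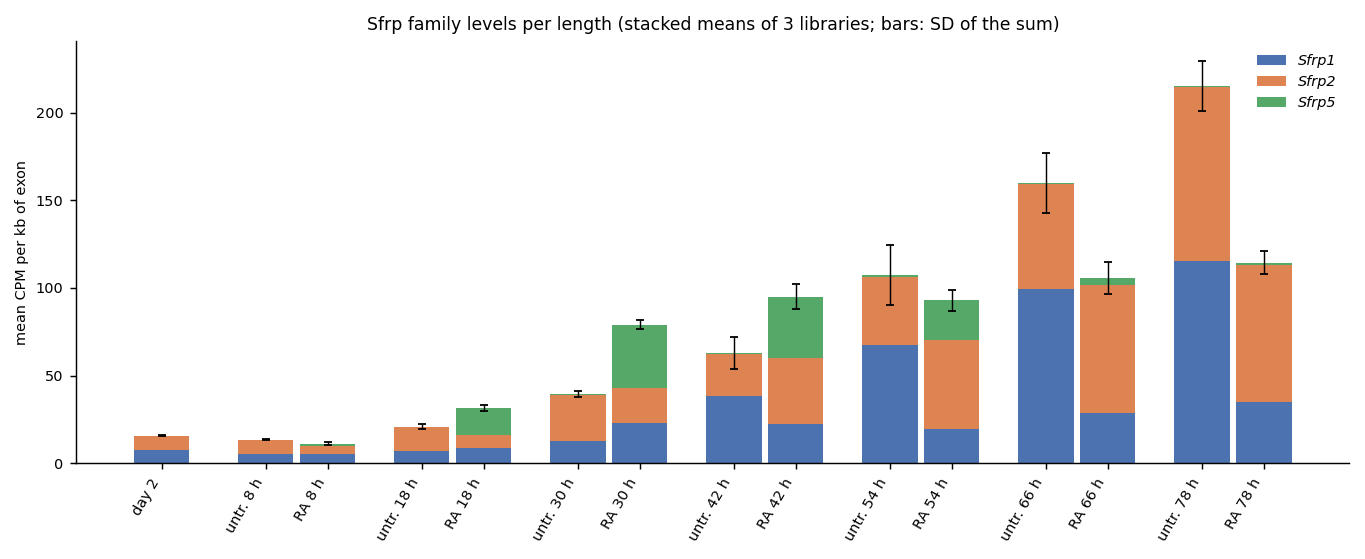
Stacked mean level of Sfrp1, Sfrp2 and Sfrp5 in CPM per kb of exon at day 2 and in untreated (untr.) and RA-treated organoids at each time, with the SD of the sum over 3 libraries as bars. The Sfrp5 block is visible with RA from 18 h to 54 h, and the untreated sum reaches 215 CPM per kb at 78 h against 115 with RA.

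Change over day 2 and the 7 later times was tested in each arm with an F test at an adjusted p under 0.01. In untreated organoids, 8 of the 8 genes that could be tested passed, as did 77.4% of all genes tested. With RA 10 of 10 did so, against 72.6%. Of these 10, Wnt1 and Dkk1 passed the filter on low counts only through RA-treated libraries in which they were high. Rspo3 passed without RA (adjusted p = 0.00487) but not when the 3 untreated libraries at 30 h were left out (adjusted p = 0.250), nor without replicate number 2 (0.0705) or 3 (0.0329). With RA it passed (adjusted p = 0.000617), but not without number 2 (0.0374). Against day 2, untreated organoids at 18 h had 1 of 8 genes called (Sp5, lower), where 4.56% of all genes were called. RA-treated organoids at 18 h had 3 of 8 called (Nkd1 and Sfrp5 higher, Lef1 lower), where 20.2% were. Nkd1 stood at 6.99, 6.51 and 7.66 CPM in these libraries, a log2 fold change of 1.56 over day 2 (SE 0.170). At 78 h, 5 of 8 were called without RA (Nkd1, Sfrp1, Sfrp2 and Sfrp5 higher, Lef1 lower), where 34.0% of all genes were. With RA all 10 were called at 78 h, 9 higher and Lef1 lower, where 37.4% were. Among these, Wnt1 and Dkk1 passed the filter through the RA-treated libraries, where they were high, and were not tested without RA. The rise of Axin2 in this comparison stood at the fold threshold (log2 fold change 1.02, SE 0.0701), and without day 2 replicate 1 or 2, or RA 78 h replicate 2 or 3, it lay between 0.97 and 1.00. The rise of Sfrp5 without RA (1.24, SE 0.395, adjusted p = 0.00929) was kept in 1 of the 6 fits that left out a library, with an adjusted p of up to 0.0563 in the others. Comparisons that use the day 2 libraries share them, and so their calls are not independent of each other.

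Whether the RA effect differed between the 7 times was tested as an interaction over 42 libraries. It did at an adjusted p under 0.01 for Lef1 (0.00213), Sp5 (0.000678), Nkd1 (0.000232), Sfrp1 (8.44e-12), Sfrp2 (2.3e-11) and Sfrp5 (2.08e-11), 6 of 10 genes, as for 33.2% of all genes tested. The adjusted p was 0.0517 for Axin2, 0.0442 for Rspo3, 0.0929 for Dkk1 and 0.317 for Wnt1. The same 6 genes passed without RA 8 h replicate 3 and RA 30 h replicate 2, and over 18 h and 42 h to 78 h alone, both of them fits chosen after the data were seen, as was the one without the untreated 30 h libraries. Leaving out all libraries with replicate number 1 took the adjusted p of Lef1 to 0.161 and that of Sp5 to 0.0436. Without number 2 it was 0.0126 for Lef1 and 0.0268 for Nkd1, and without number 3 it was 0.0273 for Nkd1.

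A list of 77 other genes of the pathway was counted in the same fits. At 18 h, 11 of 64 tested rose and 2 fell, and at 78 h 13 of 68 rose and 6 fell. The rises are 17.2% and 19.1% of the genes tested, beside 8.17% and 7.66% of all genes, and the falls 3.13% and 8.82%, beside 2.76% and 4.03%. Without RA 8 h replicate 3 the counts at 8 h went from 2 higher and none lower of 62 to 4 and 1 of 63, and without RA 30 h replicate 2 those at 30 h from 7 and 4 of 62 to 10 and 5 of 62. With all libraries, 3.23% of the list rose at 8 h beside 1.26% of all genes, and none fell beside 0.537%. At 30 h, 11.3% rose beside 5.98%, and 6.45% fell beside 2.48%. Shares over all genes without these libraries are not given, so the increases are not read as particular to the list. The median log2 fold change of the listed genes was 0.27 at 18 h and 0.11 at 78 h, against 0.02 and 0.00 over all genes. Among the other Wnt ligands, 7 of 15 (46.7%) rose and 1 (6.67%) fell at 78 h. Wnt3a, a canonical ligand of the dorsal neural tube and tail bud, stood at 7.19 ± 0.524 CPM with RA and 0.770 ± 0.323 CPM without at 78 h (log2 fold change 3.22, adjusted p = 7.68e-07), and Wnt6 rose at the same 4 times from 42 h. The untreated libraries together held 7, 30 and 42 counts of Wnt3a at 42, 54 and 66 h. At these times Wnt3a passed the filter on low counts only through the RA-treated libraries, where it was high. Wnt8a, a ligand of the early embryo, stood at 166 ± 16.4 CPM without RA and 4.70 ± 1.36 CPM with RA at 78 h. It fell at 42, 54, 66 and 78 h by 3.12, 4.12, 4.32 and 5.11 on the log2 scale, and was not called at 8, 18 or 30 h (log2 fold changes of 0.73, 0.23 and 0.24). At 8 h, however, RA-treated libraries had 146, 159 and 29.6 CPM against 68.2, 65.7 and 68.3 CPM untreated, so that replicates 1 and 2 lay above the untreated group and replicate 3 below it. Without RA 8 h replicate 3, Wnt8a was called as higher with RA (log2 fold change 1.17, SE 0.0655, adjusted p = 8.63e-10).

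Of 15 receptors and co-receptors, 1 rose and 1 fell at 78 h (6.67% each, near the shares over all genes of 7.66% and 4.03%). Fzd8, a Frizzled receptor, rose at 6 of 7 times and had 16.7 ± 1.21 CPM with RA and 6.08 ± 0.518 CPM without at 78 h. Ror1, a receptor linked to Wnt5a, fell at 5 times, with 10.45 ± 1.77 against 25.7 ± 3.94 CPM at 78 h. Of the other secreted or membrane antagonists, 9 of 14 could be tested at 78 h. Of these, 4 (44.4%, beside 7.66% of all genes) rose and 3 (33.3%, beside 4.03%) fell. Sost, which like Dkk1 binds Lrp5 and Lrp6, rose at 6 times and had 2.29 ± 0.349 CPM with RA and 0.176 ± 0.0822 CPM without at 18 h. The untreated libraries together held 14 counts of Sost at 18 h and 1 at 30 h. At both times it passed the filter on low counts only through the RA-treated libraries, where it was high. Sfrp4, a further Sfrp gene, fell at 6 times, with 0.577 ± 0.278 against 3.86 ± 0.691 CPM at 78 h, and Draxin rose at 5. Of 13 cytoplasmic transducers such as the Dishevelled and Axin proteins, 1 rose (7.69%, near the 7.66% of all genes) and none fell at 78 h. Of 8 R-spondins and their receptors 7 were tested, none rose and 1 fell (14.3%, beside 4.03% of all genes). Of the 7 nuclear effectors, Pygo1, a β-catenin cofactor, rose at 5 times, from 8 h (log2 fold change 1.67, adjusted p = 0.00815) to 54 h (1.25). Its call at 8 h was kept in 1 of 6 fits that left out a library, the one without RA 8 h replicate 3 (adjusted p = 0.000253), with an adjusted p of up to 0.0596 in the others. At 30 h, Fzd8 and Ror1 were each not called without any one of the 3 untreated libraries (adjusted p of up to 0.0207 and 0.0124). Of the fits with a library left out, Draxin was called only in the one without RA 30 h replicate 2 (adjusted p of up to 0.0257 in the other fits), and Sost was not called without untreated 30 h replicate 1 (adjusted p = 0.0113). Both genes of ligand secretion, Porcn and Wls, rose at 18 h and 42 h (8.17% and 7.49% of all genes) and neither at 54, 66 or 78 h.

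**Figure D4:**
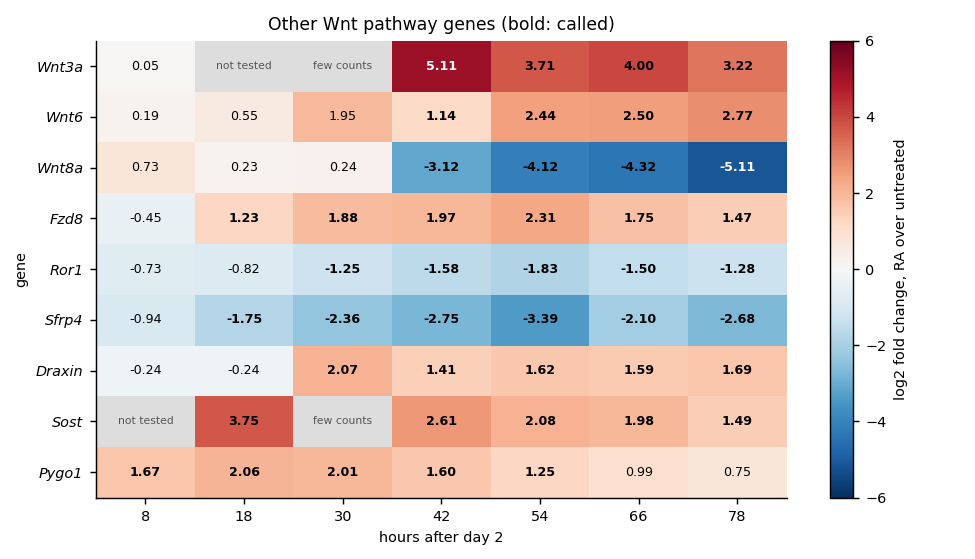
Log2 fold change of RA-treated over untreated organoids for the 9 other pathway genes taken by the naming rule, by hours after day 2 (bold: called; grey: not tested, or 1 to 3 counts in the untreated libraries together). Wnt8a goes from 0.24 at 30 h to -3.12 at 42 h, whereas Fzd8 is positive and Sfrp4 negative at each time from 18 h on. All libraries of 30 h except RA 30 h replicate 2 are in the lower range of Y chromosome genes, and all of 42 h in the higher range.

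Marker lists of other cell types moved with RA as well, and their part in the results above was not tested. Counts of calls in this paragraph are for 78 h, when 7.66% of all genes tested rose and 4.03% fell. Roof plate genes (Lmx1a, Msx1, Msx2, Gdf7 and Zic1), of the dorsal midline where Wnt1 is made, summed to between 112 and 126 CPM with RA and 13.9 and 16.8 CPM without at 78 h, and 4 of 5 rose. Zic1 had most of this sum, at 82.8 to 95.3 CPM with RA, while Gdf7 was at most 1.02 CPM. Midbrain and isthmus genes (En1, En2, Pax2, Pax5, Pax8 and Fgf8), the other site of Wnt1, summed to between 24.1 and 30.3 CPM with RA and 12.3 and 12.8 CPM without, with 3 of 6 higher and 1 lower, Fgf8 being at 0.560 to 1.33 CPM with RA and 2.51 to 3.24 CPM without. Endoderm genes (Sox17, Foxa2, Gata4, Gata6 and Afp) summed to between 20.2 and 23.0 CPM with RA and 2.83 and 3.09 CPM without. Paraxial mesoderm genes summed to between 6.31 and 7.47 CPM with RA at 78 h, most of it Meox1 (5.01 to 6.59 CPM), and Msgn1 was at 0 in all 3 libraries. The pluripotent or epiblast list (Pou5f1, Nanog, Zfp42, Fgf5 and Otx2) had a lower sum with RA at every time, at 182 to 348 CPM against 455 to 541 CPM at 78 h, where 3 of 5 fell. Its members did not all go this way, since Nanog was at 137 to 149 CPM with RA and 110 to 130 CPM without at 18 h, and Zfp42 at 67.4 to 71.8 CPM with RA and 38.2 to 47.1 CPM without at 66 h. A list of 10 simple epithelial and trophoblast-linked genes (Krt7, Krt8, Krt18, Krt19, Gata2, Gata3, Elf5, Hand1, Cdx2 and Tfap2c), added after the values were seen, summed to between 764 and 793 CPM with RA and 67.1 and 76.0 CPM without at 78 h, and all 10 rose. Neuron genes (Tubb3, Dcx, Elavl3 and Neurog2) summed to between 217 and 255 CPM with RA and 91.6 and 95.4 CPM without, and 3 of 4 rose. Neural crest genes (Foxd3, Snai2, Sox10 and Tfap2a) summed to between 7.67 and 10.9 CPM with RA and 6.16 and 7.73 CPM without, with 2 of 4 higher and 1 lower. Elf5 stayed below 1 CPM in all libraries at 78 h.

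RA 30 h replicate 2 was the highest of its group in several of these lists at once. The simple epithelial and trophoblast-linked list stood at 249 CPM in it and at 60.3 and 56.4 CPM in RA 30 h replicates 1 and 3, the endoderm list at 26.0 CPM against 4.57 and 4.48 CPM, and the roof plate list at 30.2 CPM against 9.92 and 9.08 CPM. Axin2, Sp5, Wnt1, Dkk1 and Sfrp5 were all highest in this library within the group, and Lef1, Nkd1, Sfrp1 and Sfrp2 lowest. Rspo3 lay between its levels in RA 30 h replicates 1 and 3. The neural progenitor list was at 624 CPM in it and at 888 and 842 CPM in the other 2. It was also the 1 RA-treated library of 30 h in the higher range of Y chromosome genes. RA 8 h replicate 3, in the lower range of these genes, had 63.3 CPM of the simple epithelial and trophoblast-linked list against 158 and 151 CPM in replicates 1 and 2, and was lowest of its group in Axin2, Lef1, Sp5, Nkd1, Rspo3, Sfrp2 and Sfrp5 and highest in Sfrp1.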

How the data were processed

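RNAseq was made from 45 organoid samples, 3 biological replicates for each of 15 conditions, with a directional library kit and single-end reads. The authors trimmed reads with Trim Galore 0.5.0, aligned them and counted them per gene with featureCounts of Subread 1.6.2, per the labels, which also name Bowtie2 2.3.4.1. The strand setting of the counting is not given in the sources used here. The deposited values are raw counts per gene, not normalized. Bases of Axin2, Lef1, Rspo3 and Sfrp2 are shared with antisense genes, which had at most 33 counts in any library.

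Each comparison of 3 against 3 libraries was fitted on its own 6 libraries with edgeR 4.0.16 in R 4.3.3 (TMM, filterByExpr with a minimum count of 10 and total of 15, quasi-likelihood F test, Benjamini-Hochberg adjustment over all genes). The SE is the log2 fold change divided by the square root of F. Calls needed an adjusted p of less than 0.01 with a log2 fold change beyond 1 or -1. Change over time, and the interaction of RA with time, were tested with F tests at an adjusted p under 0.01. The scripts were tested on simulated data. Groups came from the sample labels. No 2 libraries of a group agreed within sampling noise, the lowest mean chi-square per gene over 45 pairs being 1.97. Intervals and floors cover counting error only.

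The 10 genes, the list of 77 other pathway genes and the marker lists were chosen with earlier results of these data known. Of the other pathway genes, up to 3 per role were named, with the largest median change among those called in 1 direction at 4 or more times and at 1 CPM or more on average. Deviations of same-numbered libraries of the arms correlated at 0.213 to 0.521 at 66 h, where the number was taken as a pairing, and at 0.09 to 0.225 at 30 h and 0.023 to 0.35 at 78 h, where the lowest pair was too low for that. At the other times the lowest pair was at 0.044 or below. Alternatives were other normalizations, no filter, DESeq2 1.42.0, 1 fit of all libraries, a replicate block, a looser threshold, earlier library numbers only, and leaving out single libraries.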

Additional observations from a re-analysis of the deposited data

Results flagged for a closer look

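For 6 of the 10 genes the effect of RA differed between the 7 times by edgeR's interaction test over 42 libraries. The adjusted p was 0.00213 for Lef1, 0.000678 for Sp5, 0.000232 for Nkd1, 8.44e-12 for Sfrp1, 2.30e-11 for Sfrp2 and 2.08e-11 for Sfrp5. For Sfrp1 and Sfrp2 the log2 fold change of RA-treated over untreated organoids also changed sign, from 0.83 at 30 h to -1.79 at 54 h for Sfrp1, and from -0.78 at 18 h to 0.62 at 42 h and -0.33 at 78 h for Sfrp2. No formal test for an extreme library was made in groups of 3, and fits without single libraries are given with the results.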

How the results depend on the processing

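Apart from fits that left out a library, 705 of 725 values for single genes kept their direction and their side of the threshold, as did 649 of 692 in fits that left one out. Library totals in place of TMM turned the log2 fold change of Axin2 at 18 h (0.0818) and 42 h (0.0274), of Nkd1 at 42 h (0.0287) and of Sfrp2 between RA 18 h and day 2 (0.146), all of which were below 0 and not called. With that scaling the median gene lay at a log2 fold change of 0.14 at 18 h, 0.18 at 30 h and 0.22 between RA 18 h and day 2. Leaving out single libraries turned values near 0 that were not called: Sfrp1 at 8 h (-0.24 to 0.27), Axin2 at 18 h (-0.13 to 0.0346) and 42 h (-0.11 to 0.01705), Nkd1 at 42 h (-0.13 to 0.0379), Rspo3 at 18 h (-0.10 to 0.47) and between untreated 18 h and day 2 (-0.16 to 0.43), and Sp5 between RA 18 h and day 2 (-0.055 to 0.29).

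The number of the 10 genes called at 8 h was 1, and 2 in a fit of all 45 libraries, 2 at an adjusted p under 0.05 with no minimum fold, and 0 to 2 with a library left out. At 18 h it was 3, and 6 at the looser threshold. At 30 h it was 2, and 4 with no filter, with DESeq2, in the fit of all libraries and with earlier library numbers only, 5 at the looser threshold, and 1 to 3 with a library left out. Calls over all genes at 30 h moved as well, from 8.45% of those tested to 5.89%, 9.32%, 13.9% and 12.2% in these 4 fits, of which the last had 1 RA-treated library and took its spread from the 3 untreated ones. Between untreated 18 h and day 2 it was 1, and 0 in the fit of all libraries, 4 at the looser threshold and 0 to 1 with a library left out. Between RA 18 h and day 2 it was 3, and 5 at the looser threshold. In the fit of all libraries, calls over all genes went from 1.8% to 4.2% at 8 h. Between untreated 18 h and day 2 they went from 4.56% to 3.7%. For the looser threshold and the fits with a library left out, the share over all genes is not given. Those counts are thus no result about the 10 genes. The fit of all libraries also lost Sp5 at 18 h (adjusted p = 0.0312) and 42 h (0.0160), and with no filter the interaction was called for Axin2 (8.43e-10) and Rspo3 (0.00198) too. The cause was not tested. With the replicate number as a block, 7 genes were called at 66 h, as without it. The block changed no call of the 10 genes in any comparison or F test, and apart from 66 h the number was not taken as a pairing. The SE and adjusted p printed for 66 h are of the fit without the block. Depth limits Wnt1 and Dkk1 up to 30 h, where counts were too few for the test.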

Other observations

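For each of the 10 genes, the course over the 15 condition means was set beside that of 14314 genes with a mean of at least 1 CPM, by Pearson's r of log2(mean CPM + 1). These values describe likeness over conditions that share libraries and carry no test. The course of Lef1 was most like that of Ly6e (r = 0.985) and Nampt (0.982), and that of Dkk1 most like those of Aldh1a1 (0.983), an enzyme that makes RA, and Adcy8 (0.979). Wnt1 was closest to Tmprss2 (0.994 over 15 conditions) and had Krt7 (0.990), a keratin of simple epithelia, among its 3 closest. Sp5 was closest to Esx1 (0.972), with Krt8 (0.965), another such keratin, next. Sfrp5 had Meox1 (0.955), a paraxial mesoderm gene, among its 3 closest. Among the genes not called between the arms, Sfrp2 was closest to Rnf144a (0.989) and had Vangl2 (0.985), a planar cell polarity gene, among its 3 closest. Nkd1 was closest to Knstrn (0.989), Axin2 to Pih1d2 (0.968), Sfrp1 to Zeb2os (0.989) and Rspo3 to Samd5 (0.938).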
